A study of Mus with 48 samples.

Results

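Synaptic adhesion and scaffold genes were followed as a set of 50 genes in the mouse brain. The members were chosen by name and function, with earlier results of these data known. All 50 were found by symbol among the 23339 genes with a usable name. The list holds 21 postsynaptic adhesion proteins, 5 presynaptic adhesion proteins, 6 homophilic or other adhesion proteins, 10 secreted or glial organizers and 8 scaffold proteins. RNA was sequenced from the substantia nigra (SN), striatum, cortex and cerebellum of 12 C57BL/6J mice, giving 48 libraries. The question was how the brain of a mouse model of Parkinson's disease responds to treadmill exercise in each region. The mice were females bought at 8 weeks of age and adapted for 1 week. The saline group of 4 mice received saline in place of MPTP. The MPTP group of 4 mice received 10 subcutaneous doses of 25 mg/kg MPTP, a toxin that kills dopaminergic neurons, together with probenecid, which slows its clearance. The MPTP + EX group of 4 mice received the same injections and then ran on a treadmill for 40 min a day on 5 days a week for 12 weeks, at up to 15 m/min. Each group therefore had 4 libraries per region, 1 from each mouse, and no group ran without MPTP. The model is a toxin lesion of adult mice, and each library is bulk tissue that pools all cell types of a region.

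Synapses are held together by proteins that span the cleft. Presynaptic neurexins and the receptor phosphatases of the LAR family bind postsynaptic partners, among them neuroligins, LRRTM, SLITRK, SALM and calsyntenin proteins, and cerebellins, C1q-like proteins and pentraxins are secreted into the cleft as bridges. On the inner sides, bassoon and piccolo organize the presynaptic active zone, while the SHANK, HOMER and PSD-95 proteins build the scaffold of excitatory synapses and gephyrin that of inhibitory ones. In the nigrostriatal system, dopaminergic neurons of the SN send their axons to the striatum, where most neurons are medium spiny neurons.

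The values are FPKM, fragment counts scaled to transcript length and to library size, so that levels can be compared between genes. Read counts were not known, and precision rests on the spread between 4 mice. In 47 libraries the FPKM summed to 344700 to 403520 and 12809 to 13593 genes lay above 1 FPKM. The striatum library of mouse E29, of the MPTP + EX group, stood apart with a sum of 621093, 11595 genes above 1 FPKM and a median correlation of 0.808 with the other striatum libraries, against 0.978 to 0.990 in the other 47. It was left out of the tests, so that the MPTP + EX striatum had 3 libraries, and it is described on its own at the end. The tissue labels matched their markers. The summed FPKM of 8 medium spiny neuron markers was 2855 to 4320 in the other striatum libraries and at most 370 in the other regions, and that of 6 cerebellar granule neuron markers was 1035 to 1230 in the cerebellum and at most 219 elsewhere. The 7 dopaminergic markers summed to 473 to 1034 in saline SN, to 112 to 143 after MPTP and to 92.8 to 159 in MPTP + EX, and at most 32.9 in the other regions.

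In saline mice the members differed widely in level and by region. All 50 exceeded a mean of 1 FPKM in the SN, 48 in the striatum and cortex and 49 in the cerebellum, and the mean ran from 0.334 FPKM (Thbs1, a secreted thrombospondin, in the striatum) to 1062 FPKM (Sparcl1, the glial protein hevin, in the SN). The cortex held the highest mean of 20 members, the striatum of 11, the SN of 10 and the cerebellum of 9. The highest region also passed the test against the next one for 8, 3, 5 and 5 of these. Of the 49 members tested between regions with limma, 33 differed between cortex and cerebellum at an adjusted p under 0.05, where 66.7% of all genes did. Of these, 25 were higher in the cortex (27% of all genes) and 8 were lower (39.7%). In the SN against the cortex, 10 members were higher (38.8% of all genes) and 22 lower (20.7%), and in the striatum against the cortex 8 were higher (19.5%) and 24 lower (15.9%). The SN against the striatum gave 12 higher (36.7%) and 16 lower (20.9%), the SN against the cerebellum 20 higher (35.6%) and 16 lower (30.7%), and the striatum against the cerebellum 17 higher (28.3%) and 15 lower (36.6%).

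**Figure D1:**
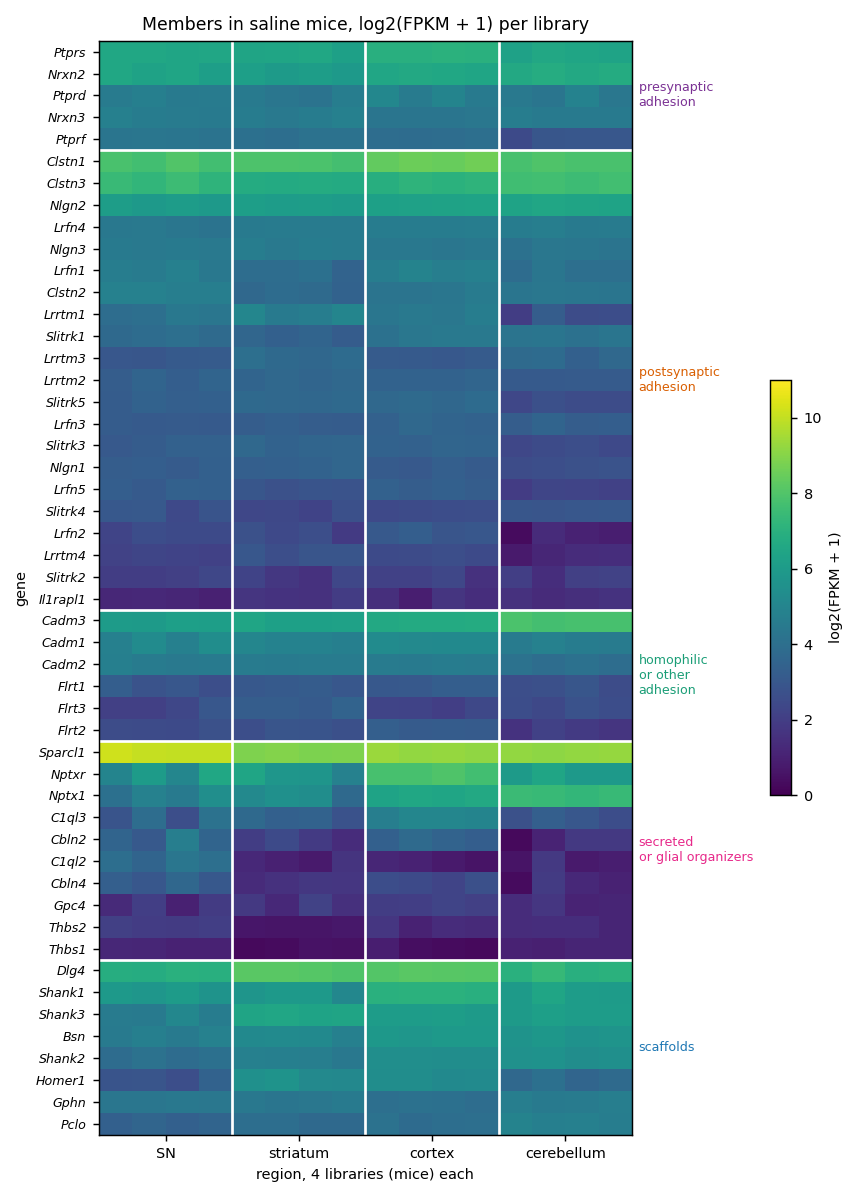
Heat map of log2(FPKM + 1) of the 50 members (rows, grouped by role) in the 16 saline libraries (columns, 4 mice per region). Sparcl1 is brightest in the SN, Nptxr, C1ql3 and Shank1 in the cortex, and Cadm3, Nptx1 and Pclo in the cerebellum, while Homer1, Shank3 and Dlg4 are dimmest in the SN.

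The largest ratios of the highest region to the next were those of C1ql2, Nptxr and C1ql3, all listed among the secreted or glial organizers. C1ql2, a C1q-like protein that bridges excitatory synapses, stood at 10.8, 14.8, 14.98 and 18.7 FPKM in the 4 saline SN libraries and at no more than 2.57 FPKM in any saline library of the other regions. Its SN mean was 11.3 times that of the striatum, the next region (adjusted p = 9.73e-08, limma). Cbln4, a cerebellin that links neurexins to postsynaptic receptors, was 6.88 to 11.8 FPKM in the SN and 3.83 to 5.47 FPKM in the cortex, without overlap. The thrombospondin Thbs2 was 2.71 to 3.20 FPKM in the SN and 1.102 to 2.295 FPKM in the cortex, and Sparcl1 was 1005 to 1185 FPKM in the SN against 569 to 648 FPKM in the cortex. These SN libraries lay above every library of the next region. In the cortex the leaders were Nptxr, the neuronal pentraxin receptor that gathers AMPA receptors, and C1ql3. Nptxr was 201, 220, 224 and 251 FPKM there and at most 92.4 FPKM elsewhere, and its cortical mean of 224 FPKM was 3.32 times that of the cerebellum. C1ql3 was 25.03 to 32.0 FPKM in the cortex and at most 16.9 FPKM elsewhere. Nptx1, the secreted partner of the pentraxin receptor, was instead highest in the cerebellum, at 155 to 178 FPKM, against 81.4 to 99.3 FPKM in the cortex and 12.5 to 44.9 FPKM in the striatum and SN.

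Scaffold genes were lowest in the SN, with 2 exceptions. Homer1, which ties SHANK proteins to metabotropic glutamate receptors, averaged 6.95 FPKM in the SN, 12.9 FPKM in the cerebellum, 39.1 FPKM in the cortex and 40.8 FPKM in the striatum. The step from SN to cerebellum and that from cerebellum to cortex both passed the test, whereas cortex and striatum did not differ beyond their spread (adjusted p = 0.837, limma). Shank3, the main SHANK of the striatum, averaged 25.1 FPKM in the SN and 85.5 FPKM in the striatum, and Dlg4, which encodes PSD-95, 117 and 277 FPKM. The exceptions were Shank1, lowest in the striatum at 50.8 FPKM and highest in the cortex at 126 FPKM, and Gphn, the gephyrin of inhibitory synapses, lowest in the cortex at 15.3 FPKM and highest in the cerebellum at 23.7 FPKM. For Shank1 the SN mean was 56.4 FPKM, and SN and striatum did not differ beyond their spread (adjusted p = 0.338, limma). Pclo, the active zone protein piccolo, was 24.1 to 29.5 FPKM in the cerebellum and at most 16.8 FPKM in any other saline library.

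Among the adhesion genes, Cadm3, a homophilic adhesion molecule of axons, was 212 to 232 FPKM in the cerebellum and 97.9 to 109 FPKM in the cortex, the next region. The striatum led for Flrt3, a ligand of latrophilins, at 7.75 to 10.22 FPKM against 4.29 to 5.76 FPKM in the cerebellum. It also led for Lrrtm4, a neurexin and glypican binding protein of excitatory synapses, at 5.27 to 6.86 FPKM against 4.56 to 5.18 FPKM in the cortex, a difference that passed narrowly (adjusted p = 0.0388, limma). That call was lost with a pseudocount of 0.1, no filter or a common median, and without the cortex library of S1, S2 or S4 or the striatum library of S1, S3 or S4 (adjusted p from 0.0598 to 0.121). Lrrtm1 was 21.7 to 32.0 FPKM in the striatum and 19.2 to 24.5 FPKM in the cortex, and these ranges overlapped. Among the neuroligins, the postsynaptic partners of neurexins, Nlgn2 of inhibitory synapses ran from a mean of 63.9 FPKM in the SN to 84.6 FPKM in the cerebellum. Nlgn1 of excitatory synapses ran the other way, from 9.95 FPKM in the striatum to 5.48 FPKM in the cerebellum, and Nlgn3 from 22.9 to 18.2 FPKM in the same regions.

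MPTP lowered 1 member in the SN. Clstn2 encodes calsyntenin 2, a postsynaptic cadherin-like protein, and the saline SN held its highest regional level. It was 24.8, 25.4, 27.5 and 27.9 FPKM in the saline libraries, 13.1, 15.98, 16.1 and 18.1 FPKM in the MPTP libraries and 11.4, 12.4, 13.3 and 14.2 FPKM in the MPTP + EX libraries. Both MPTP groups lay wholly below saline. The mean fell from 26.4 ± 1.52 FPKM (SD, n = 4) to 15.8 ± 2.06 FPKM (n = 4), a log2 difference of -0.71 with a standard error of 0.09 on the log2(FPKM + 1) scale (adjusted p = 0.0021, limma). This call held when any 1 of the 12 SN libraries was left out. Clstn2 moved in the same direction as the dopaminergic markers, all 7 of which fell (median log2 fold change -2.21), and their part in the result was not tested. In bulk tissue, fewer cells of a type and less RNA per cell cannot be told apart.

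The other members of the SN lay mostly just below saline after MPTP without passing adjustment. The 1 member called lower compares with 0.571% of all genes, no member was called higher (0.0668% of all genes), and 0.638% of all genes were called in either direction. At an unadjusted p under 0.05, 10 of 50 members were lower (5.61% of all genes) and 2 higher (5.69%), and the groups did not overlap for 5 lower members (3.97%) and 1 higher (3.61%). The members' median log2 fold change was -0.08 and that of all 13483 genes 0.02, with 35 of 50 members below 0 (43.2% of all genes). By role, 18 of 21 postsynaptic adhesion genes and 4 of 5 presynaptic ones had a mean below saline, against 4 of 10 secreted organizers and 5 of 8 scaffolds. Ptprs, a receptor phosphatase of the LAR family, was 88.1 to 94.2 FPKM in saline and 73.3 to 87.75 FPKM after MPTP (adjusted p = 0.229, limma). Lrfn4, a SALM family protein, was 17.38 to 20.7 and 15.6 to 17.37 FPKM, apart by the last digit (adjusted p = 0.252, limma). Gphn was the 1 member with all MPTP libraries above saline, at 20.6 to 25.2 against 19.1 to 20.5 FPKM (adjusted p = 0.251, limma).

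**Figure D2:**
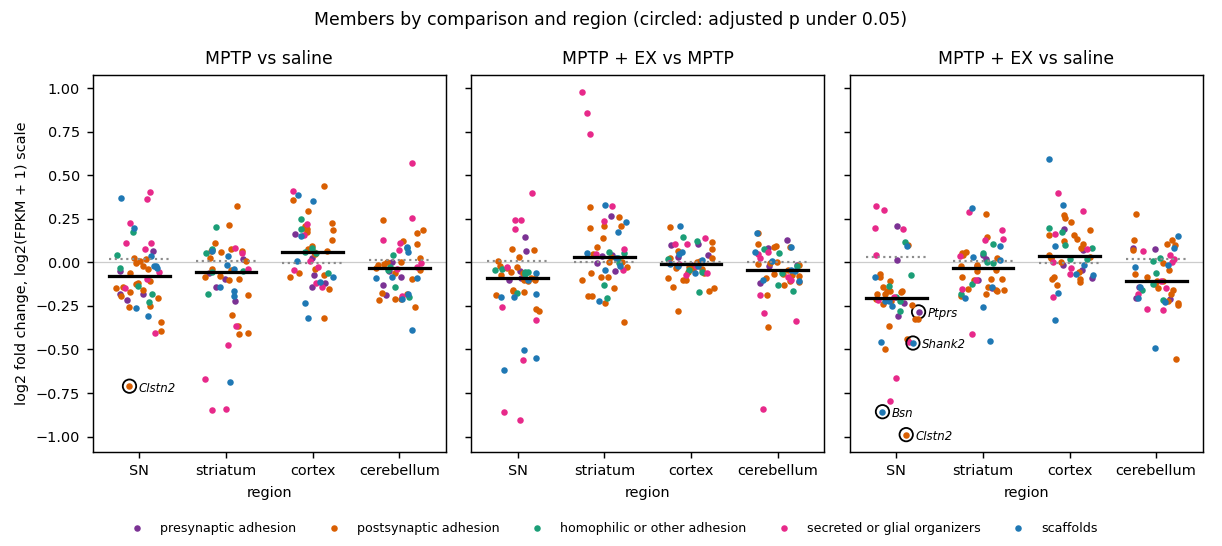
Log2 fold change of each tested member on the log2(FPKM + 1) scale (points, coloured by role) in 4 regions for 3 comparisons, with the median of the members (black bar) and of all genes tested (dotted). Circled points passed adjustment, and they lie in the SN alone, Clstn2 after MPTP and Clstn2, Bsn, Shank2 and Ptprs in MPTP + EX against saline.

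Against saline, the SN of exercised MPTP mice had 4 members called lower, against 0.764% of all genes, and none higher (0.26%, and 1.02% in either direction). They were Clstn2, Bsn, Shank2 and Ptprs. Bsn encodes bassoon, the giant scaffold of the presynaptic active zone. It was 22.0, 22.1, 26.03 and 27.7 FPKM in saline, 16.1, 19.4, 19.9 and 23.3 FPKM after MPTP and 11.7, 12.2, 13.4 and 14.8 FPKM in MPTP + EX. The exercised group lay below every library of both other groups, and its mean fell from 24.5 ± 2.85 to 13.04 ± 1.39 FPKM (n = 4 each), a log2 fold change of -0.86 with a standard error of 0.11 (adjusted p = 0.0022, limma). Clstn2 averaged 12.8 ± 1.18 FPKM in MPTP + EX, 51.4% below saline (log2 fold change -0.99, standard error 0.09, adjusted p = 0.000175, limma). Its MPTP and MPTP + EX libraries overlapped.

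Shank2, a postsynaptic scaffold of excitatory synapses, was 13.6, 14.0, 15.6 and 16.8 FPKM in saline, 14.1, 14.1, 15.6 and 18.1 FPKM after MPTP and 10.18, 10.3, 10.7 and 11.1 FPKM in MPTP + EX. Saline and MPTP overlapped throughout, while the exercised libraries lay below both. Its log2 fold change from saline was -0.46 with a standard error of 0.09 (adjusted p = 0.0261, limma). Ptprs was 72.8, 74.1, 75.2 and 77.9 FPKM in MPTP + EX, below the 88.1 to 94.2 FPKM of saline, a fall of 18.1% (log2 fold change -0.28, standard error 0.06, adjusted p = 0.0369, limma). Bsn and Clstn2 passed in each fit that left out 1 of the 12 SN libraries. Only these 2 remained without the SN library of E26, E27, E28 or S2, whereas 7 members passed without that of E29, which added Lrfn3, Nrxn3 and Shank1. Ptprs lost its call in 8 of these 12 fits, also those without M16, M23, S1 or S4, and with quantile normalization, no trend or fits of 2 groups. Shank2 lost its call in 5 of the 12, the fifth without S4. Calls over all genes were not counted in the fits with a library left out.

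**Figure D3:**
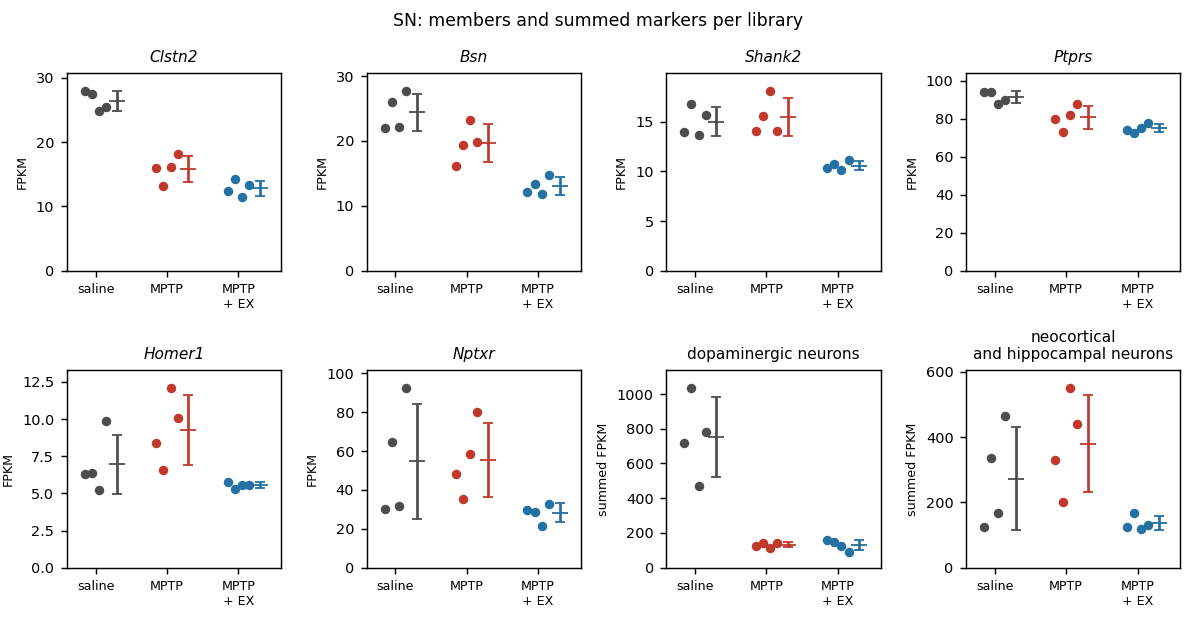
FPKM of 6 members and summed FPKM of 2 marker lists in the 12 SN libraries, 4 mice per group, with the mean and SD beside the points and axes from 0. The dopaminergic sum falls in both MPTP groups, while the neocortical and hippocampal sum is 120 to 168 in MPTP + EX and wider in the other groups, as are Homer1 and Nptxr.

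More of the members lay below saline in the exercised SN without passing adjustment. At an unadjusted p under 0.05, 18 members were lower (6.84% of all genes) and 1 higher (8.97%), and the groups were apart for 11 lower members (3.61%) and none higher (4.48%). The median of the members was -0.21 and that of all genes 0.03, with 40 of 50 members below 0 (42% of all genes). In this comparison, 20 of 21 postsynaptic adhesion genes and 7 of 8 scaffolds had a mean below saline, against 5 of 10 secreted organizers. Next in line were Shank1, at 48.6 to 64.6 FPKM in saline and 37.6 to 43.0 FPKM in MPTP + EX (adjusted p = 0.0549, limma), and Nrxn3, a presynaptic neurexin, at 21.8 to 26.8 and 17.2 to 21.5 FPKM (adjusted p = 0.109, limma).

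Between the exercised and the resting MPTP mice no SN member passed adjustment with limma, nor did any gene (0% in both directions). At an unadjusted p under 0.05, 6 members were lower (3.89% of all genes) and none was higher (3.4%, and 7.3% in either direction). For 4 of them, Shank2, Bsn, Homer1 and Nptxr, all exercised libraries lay below all MPTP libraries (2.47% of all genes), and for none above (2.27%). All 8 scaffolds had a log2 fold change below 0, from -0.62 to -0.06, where 46.5% of all genes lay below 0. Shank2 and Bsn had the lowest p, with log2 fold changes of -0.50 and -0.55 and adjusted p of 0.261 and 0.372 (limma). The 3 comparisons of a region share libraries in pairs and are not independent of each other.

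Part of this pattern moved with markers of other neurons. The summed FPKM of 8 neocortical and hippocampal neuron markers was 123, 169, 335 and 465 in the saline SN libraries S1, S3, S2 and S4, 202 to 550 after MPTP and 120 to 168 in MPTP + EX. The same libraries were high in Nptxr, at 30.2, 31.9, 64.5 and 92.4 FPKM in S1, S3, S2 and S4. Nptxr was 35.1 to 80.1 FPKM after MPTP and 21.4 to 32.7 FPKM in MPTP + EX. Homer1 was 5.24 to 9.85 FPKM in saline, 6.56 to 12.1 FPKM after MPTP and 5.30 to 5.78 FPKM in MPTP + EX. The part of these markers in the values of Nptxr, Homer1, Bsn, Shank2 and the other members was not tested. Oligodendrocyte markers summed to 4896 to 6234 in saline and 6228 to 9235 in MPTP + EX, and their part in the lower values was not tested. The sums of the 6 general neuron markers overlapped, at 1709 to 1916 in saline, 1587 to 1896 after MPTP and 1576 to 1961 in MPTP + EX. By gene, 1 of the 6 was called lower in MPTP + EX against saline (0.764% of all genes), with groups apart. After MPTP, 2 were lower at an unadjusted p under 0.05 (5.61% of all genes) and 0 higher (5.69%). The part of these markers in the members' values was not tested.

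In the cortex after MPTP, members lay on both sides of saline, with no call. None passed adjustment with limma, and neither did any gene (0%). At an unadjusted p under 0.05, 13 of 48 members were higher (9.53% of all genes) and 5 lower (10.5%). The groups were apart for 10 higher members (7.89%) and 4 lower ones (6.57%), and the median was 0.06 against -0.004 for all genes. The lowest p belonged to Lrfn4, at 23.3, 23.6, 23.8 and 24.7 FPKM in saline and 17.5, 19.0, 19.1 and 20.3 FPKM after MPTP (adjusted p = 0.0679 in limma, log2 fold change -0.32 with standard error 0.07). Lrrtm2, a neurexin partner at excitatory synapses, was 9.92, 10.04, 10.1 and 10.98 FPKM in saline and 12.99, 14.6, 14.7 and 14.8 FPKM after MPTP (adjusted p = 0.0679 in limma, log2 fold change 0.44 with standard error 0.09). The groups of both genes were apart, in opposite directions.

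Other cortical members with separate groups fell on both sides. Pclo was 13.3 to 16.8 FPKM in saline and 18.6 to 20.6 FPKM after MPTP, the adhesion gene Cadm2 22.2 to 23.7 and 25.6 to 30.2 FPKM, and C1ql3 25.03 to 32.0 and 38.2 to 41.4 FPKM. The SHANK genes were on the other side, with Shank1 at 122 to 129 and 98.3 to 103 FPKM and Shank3 at 63.5 to 68.8 and 52.6 to 61.0 FPKM, while their partner Homer1 was 36.6 to 41.4 and 48.1 to 54.4 FPKM. Calls here changed with the libraries in the fit. A fit of the saline and MPTP libraries alone called 8 members, C1ql3, Cadm2, Homer1, Lrfn4, Lrrtm2, Pclo, Shank1 and Shank3. That fit called 365 of all genes, where the fit of 3 groups called 0. Leaving out the cortex library of E28 or of E29 called 3 (Lrfn4, Lrrtm2 and Shank1) and 4 (Cadm2, Lrfn4, Lrrtm2 and Pclo). Calls over all genes were not counted in the fits with a library left out. Summed markers of general neurons were 1974 to 2176 in saline and 2253 to 2329 after MPTP, those of microglia 116 to 133 and 94.4 to 108, those of endothelial cells 53.3 to 63.7 and 38.7 to 44.4 and those of the choroid plexus 22.5 to 473.8 and 5.06 to 19.6. These sums did not overlap between the groups, and their part in the members' values was not tested.

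**Figure D4:**
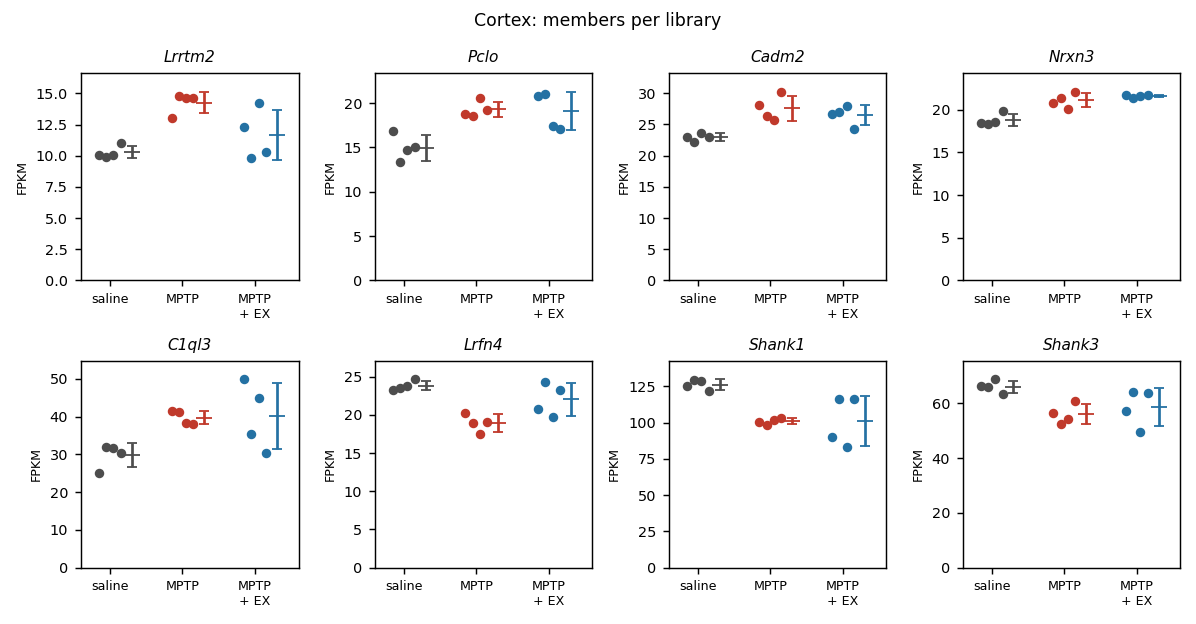
FPKM of 8 members in the 12 cortex libraries, 4 mice per group, with the mean and SD beside the points and axes from 0. Lrrtm2, Pclo, Cadm2, Nrxn3 and C1ql3 lie higher and Lrfn4, Shank1 and Shank3 lower after MPTP without overlap, and the MPTP + EX libraries of Lrrtm2, Lrfn4 and Shank1 are spread wider than either.

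The exercised cortex did not differ from the resting MPTP cortex beyond the spread for any member (limma, 0 calls, with 1 higher and 1 lower at an unadjusted p under 0.05 against 3.23% and 2.5% of all genes). Within the exercised group the mice disagreed. Shank1 was 83.3 and 89.9 FPKM in E28 and E26 and 116 FPKM in both E27 and E29, and Lrrtm2 was 14.2 and 12.3 FPKM in E28 and E26 and 9.85 and 10.3 FPKM in E27 and E29. Lrfn4 ran the same way as Shank1, at 19.8, 20.8, 24.3 and 23.3 FPKM in E28, E26, E27 and E29. Against saline there was again no call (0% of all genes), with 7 members higher (8.34%) and 2 lower (8.76%) at an unadjusted p under 0.05. Pclo was 17.1 to 21.1 FPKM in the exercised mice and Homer1 46.5 to 88.4 FPKM, both above every saline library (adjusted p = 0.121 each, limma). Without the E29 cortex library, 5 members passed in this comparison, C1ql3, Cadm2, Homer1, Pclo and Shank1, and calls over all genes in that fit were not counted.

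In the striatum no member passed adjustment in any comparison with limma. After MPTP, 6 of 48 members were lower (4.79% of all genes) and 1 higher (5.34%) at an unadjusted p under 0.05. The adjusted rule called 0% of all genes lower and 0.0227% higher, and groups were apart for 1 higher member (3.6%) and none lower (2.07%). Cbln2, a cerebellin that joins neurexins to receptors, was 1.62, 2.68, 2.99 and 4.49 FPKM in saline, 0.822, 0.838, 1.07 and 1.97 FPKM after MPTP and 2.18, 2.67 and 2.83 FPKM in the 3 exercised libraries. Saline and MPTP overlapped by 1 library each and the exercised group lay above MPTP (log2 fold change -0.84 for MPTP against saline, adjusted p = 0.323, and 0.74 for MPTP + EX against MPTP, adjusted p = 0.367, limma). Lrrtm4 had the opposite course, at 5.27 to 6.86 FPKM in saline, 7.83 to 8.45 FPKM after MPTP and 4.77 to 7.10 FPKM in MPTP + EX, with MPTP above both (adjusted p = 0.43 and 0.392, limma).

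Between exercised and resting MPTP mice, 2 striatal members were higher (4.91% of all genes) and 2 lower (5.29%) at an unadjusted p under 0.05, and the groups were apart for 2 in each direction (4.08% higher and 4.48% lower). Of all genes, 10.2% passed the unadjusted rule in either direction and 0.0151% the adjusted one, all of the latter lower. Against saline 3 were higher (5.46%) and 4 lower (4.7%, and 10.2% in either direction), with groups apart for 1 higher (5.11%) and 3 lower (4%), and 0.00756% of all genes passed adjustment. Shank3 was 81.1 to 91.4 FPKM in saline and 65.3, 69.8 and 79.5 FPKM in MPTP + EX (log2 fold change -0.26, adjusted p = 0.31, limma). Cbln4 was 1.56 to 2.43 and 2.63 to 3.01 FPKM (log2 fold change 0.29, adjusted p = 0.417, limma). With the E29 library included, where Cbln4 was 0.229 FPKM, that log2 fold change turned to -0.11.

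Some striatal members varied with markers of neocortical neurons. Shank1 was 52.1, 59.7, 58.5 and 33.2 FPKM in S1 to S4, and the neocortical and hippocampal markers summed to 1372, 1617, 1400 and 944 in the same libraries. Nptx1 ran likewise, at 34.7, 44.9, 41.5 and 12.5 FPKM. The MPTP libraries, with marker sums of 951 to 1209, had 25.5 to 36.9 FPKM of Shank1. The library with the highest sum among the exercised, E26 at 1618, had the most Shank1 of that group (47.4 FPKM) and the most Nptx1 (53.7 FPKM). The part of these markers in the difference of Shank1 between MPTP and saline (log2 fold change -0.69, adjusted p = 0.375, limma) was not tested.

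The cerebellum gave no call in any comparison with limma. After MPTP, 10 of 48 members were lower (5.75% of all genes) and 2 higher (6.13%) at an unadjusted p under 0.05, and the adjusted rule called 0% of all genes. Clstn2, the member called in the SN, was 18.4, 18.6, 18.8 and 19.3 FPKM in saline, 15.65, 16.1, 16.1 and 16.6 FPKM after MPTP and 16.8, 17.7, 19.1 and 19.2 FPKM in MPTP + EX. The MPTP libraries were below both other groups (log2 fold change -0.21, adjusted p = 0.231, and 0.17 with MPTP + EX minus MPTP, adjusted p = 0.741, limma). Shank1 was 62.4, 64.4, 66.2 and 87.2 FPKM in saline, 48.3 to 59.2 FPKM after MPTP and 45.7 to 56.1 FPKM in MPTP + EX, below saline in both (adjusted p = 0.232 and 0.132, limma). The highest value came from S2, whose neocortical and hippocampal markers summed to 622 against 331 to 387 in the other saline cerebella. The remaining saline libraries were also above both MPTP groups.

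In the exercised cerebellum against saline, 10 members were lower (7.1% of all genes) and 1 higher (9.78%) at an unadjusted p under 0.05. The median of the members was -0.11 and that of all genes 0.02. Nlgn2 was 81.3 to 90.3 FPKM in saline and 67.2 to 74.6 FPKM in MPTP + EX, without overlap (adjusted p = 0.132 in limma, log2 fold change -0.25 with standard error 0.05). Between exercised and resting MPTP mice, 2 members were higher (3.29%) and 1 lower (2.49%). The lower one was Thbs2, at 1.56 to 2.13 FPKM after MPTP and 1.102 to 1.52 FPKM in MPTP + EX (adjusted p = 0.774, limma).

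Across regions, 46 members passed the filter in all 4 fits. After MPTP, 4 of them were lower than saline at an unadjusted p under 0.05 in 3 or more regions, where 0.746% of all genes were, and none was higher in as many (0.688%). They were Clstn2, Lrfn1, Lrfn4 and Shank1, and Shank1 was lower in all 4. In MPTP + EX against saline, Nlgn2, Shank1 and Shank3 were lower in 3 or more regions (1.84% of all genes), and none was higher (1.33%). No member moved that way between exercised and resting MPTP mice (0.205% lower and 0.213% higher). The same 12 mice supplied all regions, so that regions are not separate experiments. The first count fell to 3 members, Lrfn1, Lrfn4 and Shank1, with a common median or quantile normalization. It fell to 2 members, Lrfn4 and Shank1, with no intensity trend or with the E29 striatum library. With that library, 0 members were lower than saline after MPTP in all 4 regions.

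The response to MPTP differed between the SN and the cortex for 4 members, where 1.1% of all genes differed. Clstn2 had a log2 fold change of -0.71 in the SN and 0.13 in the cortex, a difference of -0.84 with a standard error of 0.14 (adjusted p = 0.000542, limma). Lrrtm2 differed by -0.63 (adjusted p = 0.0115), Cadm2 by -0.43 (adjusted p = 0.0139) and Nrxn3 by -0.38 (adjusted p = 0.0343, limma). For these 3 the mean was lower than saline in the SN and higher in the cortex. The count ran from 2 to 5 when single libraries were left out, with 2 without the SN library of S1, and Clstn2 alone stayed with the E29 striatum library in the fit. Against the striatum and the cerebellum no member's MPTP response differed with limma (0.657% and 0.381% of all genes), with 11 and 3 members at an unadjusted p under 0.05 (9.58% and 8.47%).

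For exercise, Shank2 was the 1 member whose response differed between the SN and the cortex (0.0597% of all genes). Its log2 fold change against MPTP was -0.50 in the SN and 0.05 in the cortex, a difference of -0.55 with a standard error of 0.11 (adjusted p = 0.0377, limma). The call was lost in 13 of the 47 fits that left out 1 library, those without any 1 of the 8 MPTP and MPTP + EX cortex libraries or the SN library of E26, E28, E29, M23 or M6. No exercise response differed between the SN and the striatum or the cerebellum with limma (0.0298% and 0% of all genes), with 9 and 11 members at an unadjusted p under 0.05 (8.76% and 6.24%). Among these, Nptx1 had log2 fold changes of -0.86 in the SN and 0.98 in the striatum (adjusted p = 0.0829) and Homer1 -0.62 and 0.33 (adjusted p = 0.0899, limma). The neocortical and hippocampal neuron markers moved in the same directions in this comparison. Their median log2 fold change was -1.13 in the SN (7 of 7 tested below 0) and 1.07 in the striatum (8 of 8 above 0). At an unadjusted p under 0.05, 7 were lower in the SN (3.89% of all genes) and 0 higher in the striatum (4.91%). The striatal sum was 1618 in E26, but 1048 and 1049 in E27 and E28, within the 951 to 1209 of the MPTP libraries. The part of these markers in these differences was not tested.

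Of 48 other genes of synapse assembly listed beside the members, 47 were found, and 45 passed the filter in the SN, striatum and cortex and 43 in the cerebellum. A single one passed adjustment in any treatment comparison. It was lower in the SN of MPTP + EX against saline, where 0.764% of all genes were called lower. Dlgap3, which links PSD-95 to SHANK proteins, fell in the SN of MPTP + EX mice to 49.8 FPKM against 78.5 FPKM in saline (log2 fold change -0.63, standard error 0.13, adjusted p = 0.0436, limma). It was also below saline in MPTP + EX in the striatum, cortex and cerebellum without passing adjustment. The log2 fold changes there were -0.33, -0.27 and -0.46 (adjusted p = 0.266, 0.150 and 0.176, limma). In the SN of MPTP + EX against saline, 14 of the 45 genes were lower (6.84% of all genes) and 1 higher (8.97%) at an unadjusted p under 0.05. Among the lower was Erc2, an active zone partner of bassoon, at 7.63 against 14.4 FPKM (adjusted p = 0.0638, limma). After MPTP alone the SN had 4 lower (5.61%) and 2 higher (5.69%), and the exercised against the resting MPTP SN 7 lower (3.89%) and none higher (3.4%). The cortex had 8 higher (9.53%) and 5 lower (10.5%) after MPTP, the striatum 2 higher (5.34%) and 7 lower (4.79%), and the cerebellum none higher (6.13%) and 7 of 43 lower (5.75%). Against saline, the exercised cerebellum had 2 higher (9.78%) and 9 lower (7.1%), the striatum 3 higher (5.46%) and 4 lower (4.7%) and the cortex 7 higher (8.34%) and 6 lower (8.76%). Against resting MPTP mice, the exercised striatum had 2 higher (4.91%) and 2 lower (5.29%). The cortex had 2 higher (3.23%) and 0 lower (2.5%), and the cerebellum 1 higher (3.29%) and 1 lower (2.49%). Among the higher was Nptx2 in the striatum, at 34.6 FPKM against 18.3 in MPTP and 18.5 in saline (adjusted p = 0.314 and 0.316, limma). In the cortex it was 71.6 against 31.5 FPKM in saline (adjusted p = 0.181, limma). These Nptx2 groups did not overlap.

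The E29 striatum library departed from the other 11 striatum libraries in most members. Of the 48 members tested in the striatum, 37 lay below the lowest of the other libraries, 6 within their range and 5 above it, or 77.1% below and 10.4% above, against 57% and 29.2% of all genes. Their median ratio to the mean of the other 3 exercised libraries was 0.279, against 0.659 for all genes. Shank2 was 0.313 FPKM in E29 and 18.9 to 26.6 FPKM in the others, and Pclo 0.622 against 10.8 to 14.7 FPKM. Clstn1, a calsyntenin, was 23.2 against 190 to 249 FPKM, whereas Lrfn3 was 22.3 against 7.20 to 9.21 FPKM and Lrfn4 49.7 against 19.6 to 23.04 FPKM. In this library the neocortical and hippocampal markers summed to 3876 and the choroid plexus markers to 8549, against at most 1618 and 2513 in the others, and Malat1, a nuclear RNA of all cells, was 17.5 FPKM against 148 to 363 FPKM in the other 47 libraries. Their part in the members' values was not tested.

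**Figure D5:**
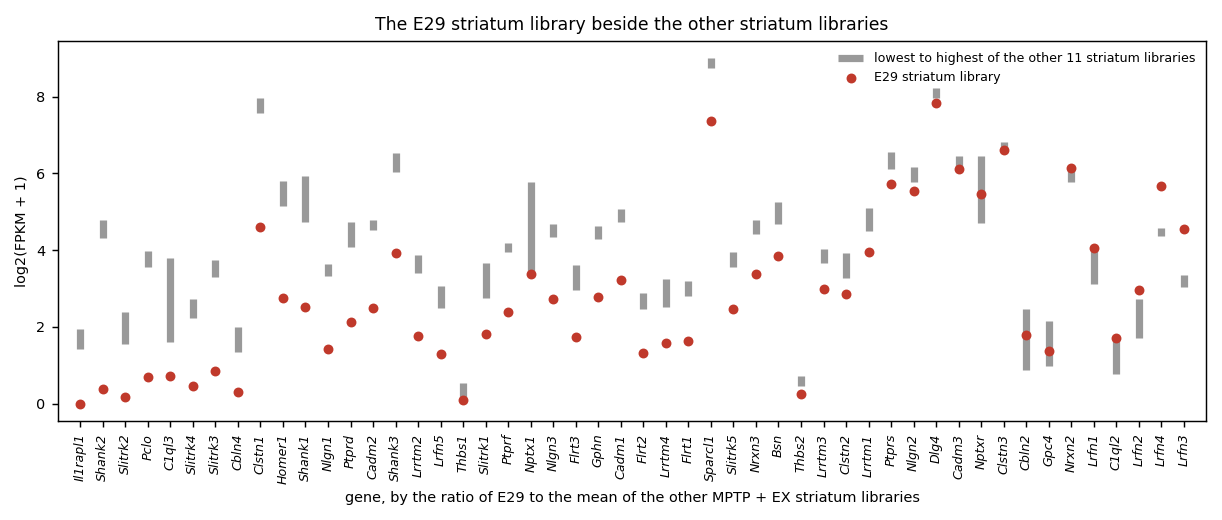
Log2(FPKM + 1) of the 50 members in the E29 striatum library (points) and the range of the other 11 striatum libraries (bars), ordered by the ratio of E29 to the mean of the other exercised libraries. Most points lie below their bar, from Il1rapl1 and Shank2 on the left, and those of Lrfn1, C1ql2, Lrfn2, Lrfn4 and Lrfn3 on the right lie above it.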

How the data were processed

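RNA-seq of 4 brain regions from 12 mice was used, 48 libraries together. As the unit of expression, the authors deposited FPKM by gene for each library. The study's methods name Tophat2, Cuffquant of Cufflinks, RSEM and DESeq, and the submitters' processing notes name HISAT2 2.1, HTSeq 0.11 and the build mm9. The tools that produced the deposited FPKM, and the gene annotation, are not given in the sources consulted. The table does not show whether reads were counted by strand, or how reads shared by similar genes were assigned. Of 23366 rows, 27 with dates in place of gene names were dropped (0.209% to 0.329% of the column sums). Groups came from region and treatment in the column names and labels. The mouse came from the start of the column name, since the labels' replicate numbers are not in the columns.

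Values were taken as log2(FPKM + 1) and fitted by limma 3.58.1 in R 4.3.3, on genes with a mean above 1 FPKM, with an intensity trend, two-sided moderated tests and Benjamini-Hochberg adjustment over all genes tested (SN 13483, striatum 13220, cortex 13049, cerebellum 12949). A fold change on this scale understates that of low genes. All 50 members passed the filter in the SN. Thbs1 and Thbs2 did not in the striatum, Thbs1 and C1ql2 in the cortex, and C1ql2 and Lrfn2 in the cerebellum. Each region was fitted with its 3 groups. Regions were compared in the 16 saline libraries (13419 genes, 49 members without Thbs1), and responses between regions in 1 fit of 47 libraries (13402 genes). The fits were tested on simulated data. The members, roles, pathway genes and markers were chosen with earlier results of these data known.

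Every member may be named. Values by library are given for up to 3 members per comparison with the lowest p among those called, otherwise up to 2 with the lowest p among those whose groups do not overlap, for up to 3 per region by the ratio to the next region, and up to 3 per difference of responses. Others given by range or by library (Ptprs, Homer1, Nptxr, Nptx1, Gphn, Sparcl1, Dlg4, Clstn1, Lrfn3 and the cortical members after the first 2) were chosen after their values were seen. The p-values test a difference in group means against the spread between libraries within groups, moderated over genes. In the fits across regions, libraries of the same mouse entered as separate, and the mouse as a block was an alternative.

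Alternatives were a pseudocount of 0.1, no filter, scaling to a common median, quantile normalization, no trend, fits of 2 groups, 1 fit over all libraries, the E29 striatum library included, each library left out and, between regions, the mouse as a block. The alternatives for the counts across regions were chosen after seeing the data. Deviations from the group means of libraries of the same mouse correlated by -0.196 to 0.298 between regions. Since the reference held no genome or sequence tables, no sequence was printed. Figures were drawn with matplotlib 3.10.9 in Python 3.11.15.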

Additional observations from a re-analysis of the deposited data

Results flagged for a closer look

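In 43 groups of 4 libraries tested for a single distant value, 3 had one, and chance gives about 1 in 20. In the cortex after MPTP, Lrrtm2 was 12.99 FPKM in M16 and 14.6 to 14.8 FPKM in the other mice. In the saline cortex it was 10.98 FPKM in S4 and 9.92 to 10.1 FPKM in the others. Both distant values lie toward the other group, and without either the groups remain apart. In the saline cerebellum, Shank1 was 87.17 FPKM in S2 and 62.4 to 66.2 FPKM in the others.

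Responses that differed between regions by their own test in limma were those to MPTP in the SN minus the cortex for Clstn2 (-0.8392 on the log2 scale), Lrrtm2 (-0.6287), Cadm2 (-0.4291) and Nrxn3 (-0.379), and that to exercise after MPTP for Shank2 (-0.5462).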

How the results depend on the processing

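Of the counts of called members, a pseudocount of 0.1 and quantile normalization moved none of 24 by over 1.5 times, though the genes could change (with quantile normalization, Shank1 was called in place of Ptprs in the SN of MPTP + EX against saline), and the mouse as a block moved none by over 1.5 times (SN against striatum in saline mice gave 29 members with the block and 28 without; the difference of MPTP responses between SN and cortex gave 4 with and without it). One fit over all libraries, which pools the spread of all regions, called more of all genes as well. In the SN after MPTP it called 2 members (Clstn2 and Sparcl1) among 417 genes, where the main fit called 86 genes. Between MPTP + EX and MPTP in the SN it called 3 (Bsn, Homer1 and Shank2) among 124 genes, against 0 genes. Between MPTP + EX and saline in the SN it called 13 among 851 genes, against 138. In the striatum after MPTP it called 1 (Shank1) among 59 genes, against 3. In the cortex after MPTP it called 3 (Lrfn4, Lrrtm2 and Pclo) among 162 genes, against 0. Fits of 2 groups called 8 members in the cortex after MPTP among 365 genes, against 0 genes in the main fit. The exercise response between SN and cortex had 0 members with no filter, a common median, no trend or the E29 striatum library, and the MPTP response 1 (Clstn2) with that library. The cause of these moves was not tested.

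With single libraries left out, the count ran from 1 to 1 in the SN after MPTP, 2 to 7 in the SN of MPTP + EX against saline, 0 to 4 in the cortex after MPTP, 0 to 5 in the cortex and 0 to 1 in the cerebellum of MPTP + EX against saline (Shank1 without the S1 cerebellum). For differences between SN and cortex it ran from 2 to 5 after MPTP and 0 to 2 after exercise, and between SN and striatum from 0 to 1 after MPTP and 0 to 4 after exercise, the highest both without the S4 striatum library. In saline mice it ran from 28 to 33 for striatum against cortex and stayed within 34 to 38 for SN against cerebellum. How many of all genes the fits with a library left out called was not counted. Cbln4 in the striatum of MPTP + EX against saline turned to -0.1124 with the E29 library (adjusted p = 0.834, limma), and the median of the members moved there to -0.34 against saline and -0.30 against MPTP. The median of the cortex against the cerebellum was 0.32, and 0.45 after scaling to a common median. Read counts were unknown, and the size of difference that could be detected near 1 FPKM was not measured.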
